A study of Mus musculus with 15 samples.

Results

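The genes described here are the 30 listed genes of cholesterol and fatty acid synthesis, matched by Ensembl identifier in a table of 54418 mouse genes and followed in 15 RNA-seq libraries of colon cancer organoids. They comprise 18 enzymes of the sterol branch, 6 enzymes of the fatty acid branch, and 6 genes that regulate the pathway or carry sterol. All 30 were found, and all 30 were among the 14925 genes with enough counts to be tested.

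All 15 libraries came from organoids labelled AKP, the control organoids included, and the labels do not spell out which alleles that name stands for. The organoids had been passed through C57Bl6 recipient mice: organoids derived from liver metastases were transplanted into the colon again, and organoids derived from primary tumours were retransplanted as controls, over 3 rounds. Groups are named by origin and round: Met1, Met2 and Met3 are metastasis-derived organoids of rounds 1, 2 and 3, and Primary2 and Primary3 are primary-derived organoids of rounds 2 and 3, with 3 libraries each. No first-round primary group was analysed here, so round 1 has no comparison of metastasis with primary. The labels give neither the age of the mice nor whether replicates came from separate mice, so the p-values reflect variation among these libraries, which may be technical. Organoids are cultured epithelium without the host tissue around a tumour, which limits them as a model of lipid supply in the animal.

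Cholesterol is built from acetyl-CoA through the mevalonate pathway, then squalene and lanosterol, and finally a series of steps that trim lanosterol to cholesterol. Fatty acids are built from the same acetyl-CoA, which Acly releases from citrate, Acaca carboxylates, Fasn assembles into palmitate, Elovl6 lengthens, and the stearoyl-CoA desaturases Scd1 and Scd2 desaturate. Both branches are controlled by the membrane-bound SREBP transcription factors: the product of Srebf2 mainly drives sterol genes, and that of Srebf1 mainly fatty acid genes. The Scap protein escorts them to the Golgi for cleavage when sterol is low, and the Insig proteins hold Scap back when sterol is plentiful. The intestinal epithelium is itself a site of sterol synthesis, and tumour cells commonly depend on both branches for membranes.

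The promoter is where both SREBP and its partner NF-Y bind in this pathway, so 5 promoters are shown that span the responses described next. Hmgcs1 is shown for its sterol element, Mvk as an enzyme whose level rose in round 2 metastases, Acat2 as an enzyme whose level fell in round 3 metastases, Fasn for the fatty acid branch and Insig1 for the feedback arm. Each line gives the 250 bases before the RefSeq start site, written 5′ to 3′ on the gene's strand (build GRCm38.p6). Capitals mark the sterol regulatory element TCACNCCAC, the NF-Y box CCAAT and the E-box CACGTG, each searched on both strands, so that ATTGG is an NF-Y box on the opposite strand. The windows were chr13:119690101-119690350 on the plus strand for Hmgcs1, chr5:114444019-114444268 on the plus strand for Mvk, chr17:12960726-12960975 on the minus strand for Acat2, chr11:120824548-120824797 on the minus strand for Fasn and chr5:28071162-28071411 on the plus strand for Insig1.
Hmgcs1: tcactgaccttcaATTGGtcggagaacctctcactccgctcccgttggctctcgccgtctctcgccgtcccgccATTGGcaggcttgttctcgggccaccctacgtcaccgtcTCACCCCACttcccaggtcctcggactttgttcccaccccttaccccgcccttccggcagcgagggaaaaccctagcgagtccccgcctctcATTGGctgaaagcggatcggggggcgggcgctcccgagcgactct
Mvk: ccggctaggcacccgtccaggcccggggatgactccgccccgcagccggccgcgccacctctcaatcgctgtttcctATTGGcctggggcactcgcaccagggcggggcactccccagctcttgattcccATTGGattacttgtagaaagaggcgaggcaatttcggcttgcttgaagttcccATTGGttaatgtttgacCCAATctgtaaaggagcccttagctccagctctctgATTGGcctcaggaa
Acat2: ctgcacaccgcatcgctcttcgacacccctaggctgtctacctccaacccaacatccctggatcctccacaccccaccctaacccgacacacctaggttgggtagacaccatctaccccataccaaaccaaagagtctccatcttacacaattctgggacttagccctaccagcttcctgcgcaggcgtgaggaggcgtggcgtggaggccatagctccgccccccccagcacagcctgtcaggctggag
Fasn: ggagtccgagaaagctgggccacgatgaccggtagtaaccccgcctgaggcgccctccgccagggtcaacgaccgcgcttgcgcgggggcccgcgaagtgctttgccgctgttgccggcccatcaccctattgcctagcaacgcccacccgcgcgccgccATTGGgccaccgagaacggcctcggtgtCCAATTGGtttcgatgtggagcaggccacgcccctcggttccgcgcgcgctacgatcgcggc
Insig1: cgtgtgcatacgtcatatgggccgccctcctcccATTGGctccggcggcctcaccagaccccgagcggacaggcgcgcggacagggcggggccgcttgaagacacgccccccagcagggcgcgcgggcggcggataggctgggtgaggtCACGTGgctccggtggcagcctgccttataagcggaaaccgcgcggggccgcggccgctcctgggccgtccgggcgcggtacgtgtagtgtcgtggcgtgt

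Among these windows only that of Hmgcs1 held the sterol element, and that of Acat2 held none of the 3 motifs. In Fasn, CCAATTGG is a pair of overlapping NF-Y boxes, and the E-box shown is that of Insig1. Promoters of 24 of the 30 genes could be matched in the RefSeq table, each window running from 250 bases before to 50 after the start, and a gene with several start sites was counted once. The NF-Y box was found in 20 of the 24 genes (83.3%), against 41.1% of 27025 mouse genes with a window of the same length. It was found in 14 of 15 sterol enzymes, 2 of 4 fatty acid enzymes and 4 of 5 regulators. The E-box was found in 5 of the 24 genes (20.8%; Insig1, Scap, Dhcr7, Hsd17b7 and Sc5d), against 8.09% of all genes, and the sterol element as spelled in 1 of 24 (4.17%), against 1.44%. A match describes letters in a window and not a bound site.

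Total counts per library ran from 14122203 to 21306543. Levels are counts per 1000000 library counts (CPM) after TMM scaling, which are not corrected for gene length, so they are compared between libraries and not between genes. Fold changes are log2 values from edgeR's quasi-likelihood test, and a gene was called at a Benjamini-Hochberg adjusted p under 0.05 over the 14925 genes. The 7 epithelial markers summed to 5460 to 14800 CPM over all libraries. The 7 hepatocyte markers summed to at most 5.95 CPM in Met1, 0.268 in Met2, 0.173 in Met3, 29.6 in Primary2 and 1.62 in Primary3. Most of the Primary2 sum was Apob alone (2.36 to 28.8 CPM). Alb was at most 0.751 CPM in Primary2 and had 1.01 to 5.65 CPM in Met1, so these markers were highest in different groups. The 6 fibroblast markers reached at most 5.15 CPM and the 3 endothelial markers 0.514 CPM, with Kdr at 0 in every library. The 5 immune markers summed to 16.2 to 29.3 CPM in Met1 and Met3 and to 5.96 to 19.7 CPM in the other groups, with the macrophage gene Lyz2 at 0 in every library. In Met1 and Met3 nearly all of that was Cd68 (19 to 28.9 and 16.1 to 23.5 CPM). Csf1r went the other way, with at most 0.457 CPM in Met1 and 0.346 CPM in Met3, against 1.67 to 4.92 CPM in Primary2 and 4.38 to 7.9 CPM in Primary3. The share of counts on 1 ribosomal RNA gene was 2.01 to 3.73% in Met1. It was 6.24 to 7.52% in Met2 and 3.74 to 3.83% in Primary2, and 3.38 to 4.09% in Met3 against 3.53 to 7.03% in Primary3. The Met2 libraries thus overlapped neither Met1 nor Primary2 in this share, so a model with it cannot fully separate the share from the groups in those comparisons. Within Met2, replicate 1 was the lowest library for 21 of the 30 genes and replicate 3 the highest for 21, where 40.4% and 34% of all genes did so. Within Primary2, replicate 1 was the lowest for 23 of the 30, where 37.1% of all genes did so. The ribosomal RNA share was tried as a covariate, and the part of the other values in the results was not tested.

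**Figure D1:**
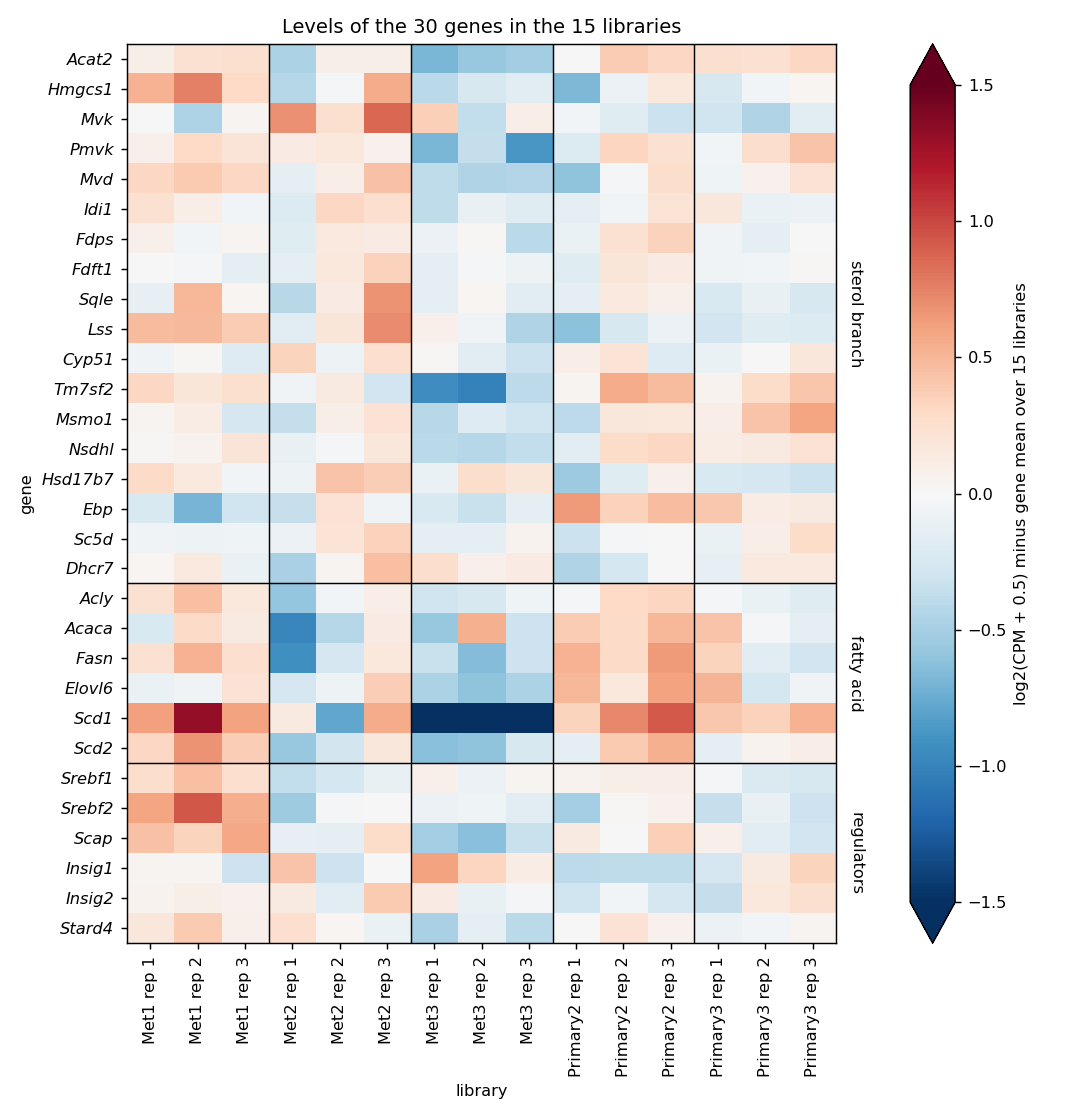
Level of each of the 30 genes (rows, grouped by branch) in each of the 15 libraries (columns, grouped by origin and round), as log2(CPM + 0.5) minus the gene's mean over the 15 libraries, with colours capped at 1.5. By group mean CPM, Met3 is the lowest group in 11 of 18 sterol rows and 5 of 6 fatty acid rows. In other rows the single bluest library lies elsewhere, such as Primary2 replicate 1 for Hmgcs1 and Met2 replicate 1 for Sqle. Scd1 goes past the end of the scale in all 3 Met3 libraries.

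The first question of the design was whether metastasis-derived organoids differed from primary-derived ones over rounds 2 and 3. Over the 6 metastasis libraries against the 6 primary libraries, with both rounds weighted equally, 2 of the 30 genes rose and 9 fell, where 30.4% of all tested genes were called, 14.3% as higher and 16.1% as lower. In the fatty acid branch 4 of 6 enzymes fell and none rose, with a median log2 change of -0.49 over all 6. In the sterol branch 5 of 18 fell and 2 rose, with a median of -0.037. Of the 6 regulators none was called, with a median of -0.013. The median over all genes was 0.01. All 11 called genes had overlapping libraries on the 2 sides, where 11.9% of all tested genes were called without overlap, so the within-round values below show which libraries carry each change.

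**Figure D2:**
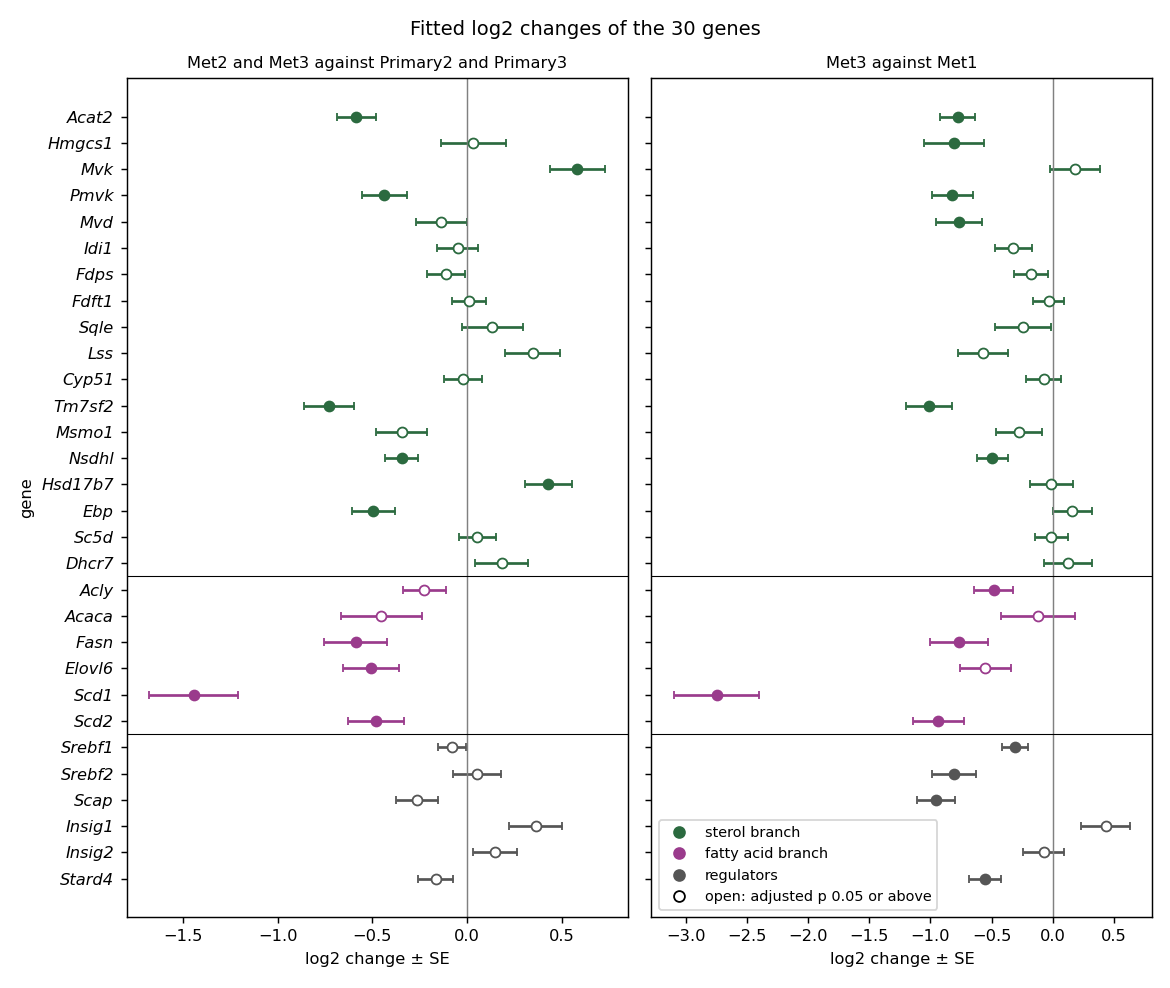
Fitted log2 change with its standard error for each of the 30 genes, in metastasis-derived against primary-derived organoids over rounds 2 and 3 (left) and in Met3 against Met1 (right); filled points passed an adjusted p of 0.05. All 6 fatty acid enzymes lie left of 0 in both panels, while sterol enzymes lie on both sides on the left, and Scd1 is the farthest left, at -1.45 and -2.75.

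The desaturase Scd1 had the smallest p of the 30 genes in the comparison of metastasis with primary. Scd1 stood at 95.1, 50.5 and 128 CPM in Met2 and at 28.6, 15 and 27.9 CPM in Met3, against 109, 143 and 164 CPM in Primary2 and 115, 110 and 125 CPM in Primary3. Met2 replicate 3 lay within the primary range, Met2 replicates 1 and 2 below it, and all 3 Met3 libraries far below every other library. Its fitted change was -1.45 on the log2 scale (SE 0.23, adjusted p = 0.000847). In the round 3 pair it was -2.29 (SE 0.34, adjusted p = 0.00161), and in the round 2 pair it was -0.60 and did not pass the test (SE 0.32, adjusted p = 0.241). The difference between the rounds was -1.69 on the log2 scale (SE 0.46), with an adjusted p of 0.263 by edgeR and 0.0291 by DESeq2.

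The other fatty acid enzymes moved less. Its paralogue Scd2, which makes the same kind of monounsaturated product, had 668, 819 and 1120 CPM in Met2 and 641, 655 and 843 CPM in Met3, against 905, 1300 and 1440 CPM in Primary2 and 899, 1030 and 1060 CPM in Primary3. The Met3 libraries lay below all 6 primary libraries, and Met2 replicate 3 lay among them. The log2 change of Scd2 was -0.48 (SE 0.15, adjusted p = 0.0262), and the call ended when any 1 of 7 libraries was left out, namely replicate 2 of Met2, replicates 1 and 2 of Met3, and replicates 2 and 3 of Primary2 and of Primary3, with adjusted p from 0.0533 (without Primary3 replicate 2) to 0.0747 (without Met3 replicate 1). Scd1 took 4.27, 2.24 and 3.21% of the summed Scd1 and Scd2 CPM in Met3, against 9.66 to 11.4% in Primary3, and it took 5.81 to 12.5% in Met2, against 9.92 to 10.8% in Primary2. The share in Met3 was thus below that in each other library, with no overlap. Of the neighbouring desaturase genes Scd3 and Scd4, Scd4 had at most 20 counts and Scd3 between 11 and 216, so how reads shared among near-identical desaturases were assigned could not be seen from the table.

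Fasn, the fatty acid synthase itself, had 99.2, 158 and 211 CPM in Met2 and 149, 120 and 152 CPM in Met3, against 272, 230 and 295 CPM in Primary2 and 238, 167 and 154 CPM in Primary3. Each Met2 library lay below each Primary2 library, and each Met3 library below each Primary3 library, the nearest pair by 2 CPM. The log2 change over both rounds was -0.59 (SE 0.17, adjusted p = 0.0191), which became 0.0513 without Primary3 replicate 1. Elovl6, which lengthens palmitate to stearate, averaged 74.9 ± 17.1 CPM in Met2 and 50.9 ± 2.73 CPM in Met3, against 98.5 ± 15 CPM in Primary2 and 78.4 ± 23.0 CPM in Primary3 (SD, n = 3 each). Its log2 change was -0.51 (SE 0.15, adjusted p = 0.0201), and the adjusted p became 0.0528 without Met2 replicate 2 and 0.0503 without Primary2 replicate 3. Acly and Acaca, the enzymes that supply and carboxylate acetyl-CoA, had negative log2 changes that did not pass the test.

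In the sterol branch, the 5 enzymes that fell came from both ends of the pathway. Acat2, the cytosolic thiolase that opens the mevalonate pathway, had 161, 237 and 238 CPM in Met2 and 139, 151 and 156 CPM in Met3, against 225, 292 and 277 CPM in Primary2 and 265, 263 and 278 CPM in Primary3. Met2 replicates 2 and 3 lay inside the Primary2 range, and every Met3 library lay below every other library. Acat2 changed by -0.59 (SE 0.10, adjusted p = 0.00137) over both rounds and -0.85 (SE 0.15, adjusted p = 0.00289) in round 3. Its near-identical neighbour Acat3 had 0 to 83 counts, so Acat2 is named with the caution that shared reads could be split.

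Tm7sf2, a sterol reductase acting after lanosterol, had 35.7, 40.6 and 30.3 CPM in Met2 and 19.2, 18.1 and 28.2 CPM in Met3, against 38.1, 54.6 and 51.8 CPM in Primary2 and 38.6, 44.9 and 49.5 CPM in Primary3. Met3 again lay below all 12 other libraries. The log2 change was -0.73 (SE 0.13, adjusted p = 0.00172) over both rounds and -1.02 (SE 0.19, adjusted p = 0.00416) in round 3. Tm7sf2 shares exon sequence on the same strand with Vps51, a gene of vesicle tethering, which had a log2 change of 0.12 (SE 0.13, adjusted p = 0.504) in the same comparison and 0.35 (SE 0.18, adjusted p = 0.184) in round 3.

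Pmvk, the phosphomevalonate kinase, had 120, 123 and 115 CPM in Met2 and 68.2, 85.7 and 59.9 CPM in Met3, against 95.5, 138 and 129 CPM in Primary2 and 107, 132 and 148 CPM in Primary3. Met2 lay inside the Primary2 range, and Met3 below all other libraries. The log2 change of Pmvk was -0.44 (SE 0.12, adjusted p = 0.0148) over both rounds, 0.0521 without Met3 replicate 1, and -0.85 (SE 0.17, adjusted p = 0.00557) in round 3. Nsdhl, which removes methyl groups from lanosterol's products, had 110, 117 and 133 CPM in Met2 and 89.5, 88 and 91.8 CPM in Met3, against 105, 144 and 147 CPM in Primary2 and 128, 130 and 138 CPM in Primary3. Its log2 change was -0.35 (SE 0.09, adjusted p = 0.0117) over both rounds and -0.56 (SE 0.13, adjusted p = 0.011) in round 3, and the round 3 value became 0.0516 with the ribosomal RNA share in the model.

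Ebp, the sterol isomerase, had 76.1, 113 and 93.8 CPM in Met2 and 82.8, 76.8 and 88.3 CPM in Met3, against 151, 124 and 134 CPM in Primary2 and 129, 105 and 107 CPM in Primary3. The libraries did not overlap within either round. Ebp had a log2 change of -0.50 (SE 0.11, adjusted p = 0.00637) over both rounds. It was -0.53 (SE 0.16, adjusted p = 0.0509) in round 2 and -0.46 (SE 0.16, adjusted p = 0.0633) in round 3, neither of which passed alone in the main edgeR fit. With the ribosomal RNA share in the model the round 2 change was -0.30 (adjusted p = 0.486) and the round 3 change -0.61 (adjusted p = 0.0423). DESeq2 called Ebp in both rounds (adjusted p = 0.0196 in round 2 and 0.0349 in round 3), and limma-voom called it in round 2 (adjusted p = 0.0487). So did edgeR in round 2 with a CPM filter (adjusted p = 0.0488), and in round 3 when only the groups compared were fitted (adjusted p = 0.0365).

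Against that direction, Mvk and Hsd17b7 were higher in metastasis-derived organoids. Mvk, the mevalonate kinase that precedes Pmvk, had 89.8, 65.7 and 101 CPM in Met2 and 71.5, 42.9 and 59.3 CPM in Met3, against 53.8, 49.1 and 44.5 CPM in Primary2 and 45, 40.6 and 49.3 CPM in Primary3. Every Met2 library exceeded every primary library, while Met3 replicate 2 fell inside the Primary3 range. The log2 change was 0.58 (SE 0.15, adjusted p = 0.00957) over both rounds. Hsd17b7, a sterol ketone reductase after lanosterol, averaged 45.1 ± 8.28 CPM in Met2 and 41.2 ± 5.35 CPM in Met3, against 32.8 ± 6.99 CPM in Primary2 and 31.2 ± 1.07 CPM in Primary3 (SD, n = 3 each). Its log2 change was 0.43 (SE 0.12, adjusted p = 0.0199). The 3 enzymes from squalene to lanosterol, Fdft1, Sqle and Lss, had positive values in this comparison and none was called.

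**Figure D3:**
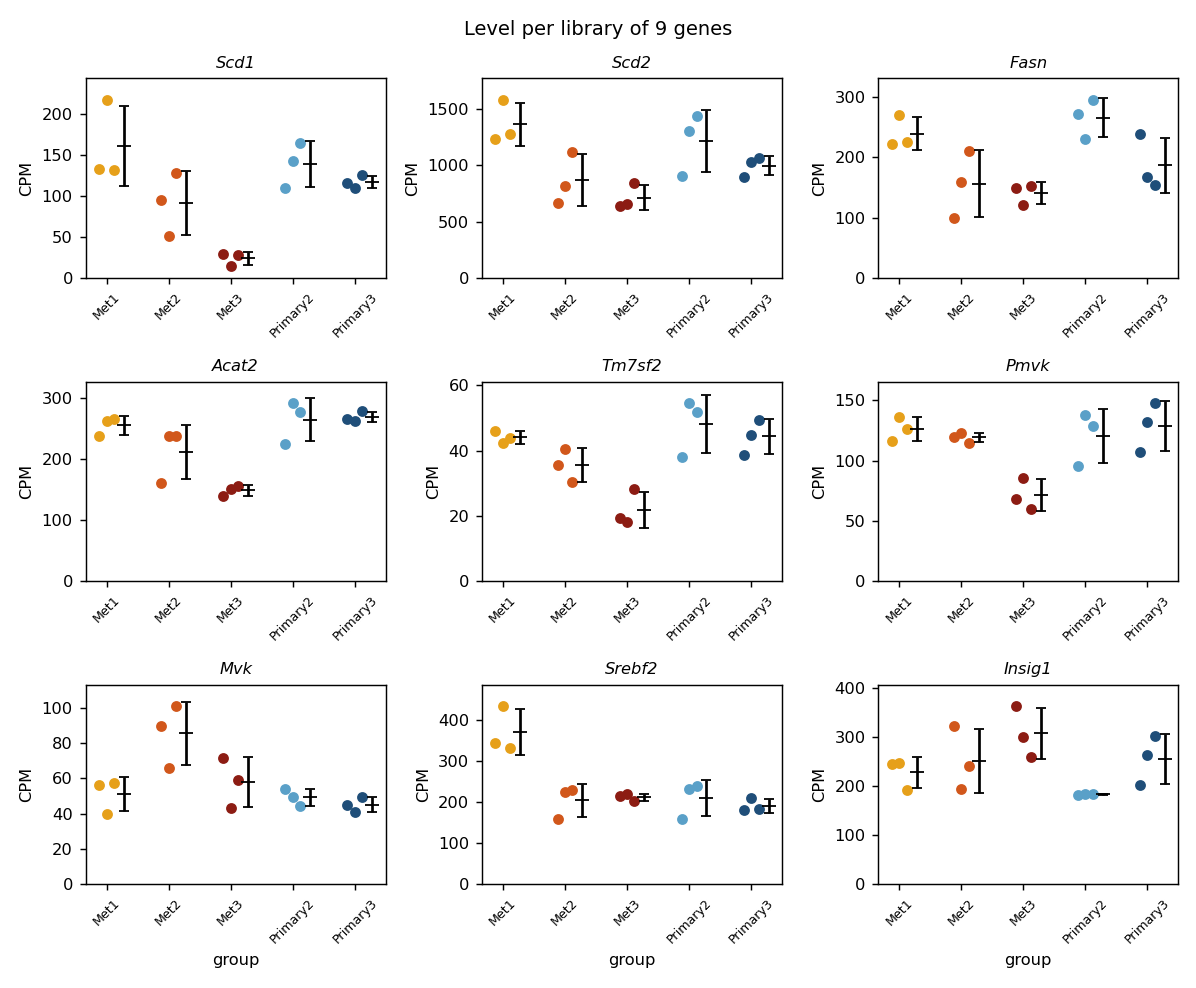
CPM of 9 genes in each library (points), with the group mean and SD (black bars, n = 3), for Met1, Met2, Met3, Primary2 and Primary3; each panel starts at 0. Scd1, Acat2, Tm7sf2 and Pmvk have their 3 lowest libraries in Met3, Mvk its highest group in Met2, and Srebf2 its highest group in Met1.

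Within round 2, Met2 against Primary2, 1 of the 30 genes was called, where 11.8% of all tested genes were called, 5.5% as higher and 6.35% as lower. That gene was Mvk, with a log2 change of 0.80 (SE 0.21, adjusted p = 0.0275) and no overlap of libraries, where 5.07% of all genes were called higher without overlap. The call for Mvk ended when any of 4 libraries was left out, with adjusted p of 0.0685 without Met2 replicate 3, and 0.0557, 0.0721 and 0.0974 without Primary2 replicates 1, 2 and 3. It ended too when the ribosomal RNA share entered the model, with an adjusted p of 0.154, or when only these 2 groups were fitted (adjusted p = 0.0817). None of the 6 fatty acid enzymes was called by the main edgeR fit, although all 6 log2 changes were negative, where 7223 of all 14925 genes were negative. The median of the 6 was -0.54, while the 18 sterol enzymes had a median of 0.13 and all genes 0.02. Fasn had a log2 change of -0.77 (SE 0.24, adjusted p = 0.0532) here, just outside the threshold in that fit. Fasn was called lower by DESeq2 (adjusted p = 0.0183), by limma-voom (adjusted p = 0.0417) and by edgeR with no low-count filter (adjusted p = 0.0427). By DESeq2, 5 of the 30 genes were called, 2 higher and 3 lower, and edgeR called 3, all higher, without Met2 replicate 1, and 2 without Met1 replicate 2, Met2 replicate 2 or Primary3 replicate 1.

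Within round 3, Met3 against Primary3, 6 of the 30 genes fell and none rose, where 19.1% of all tested genes were called, 8.12% as higher and 11% as lower. The 6 were Scd1, Acat2, Tm7sf2, Pmvk, Nsdhl and Msmo1, all without overlap of libraries, where 10.9% of all genes were called lower without overlap. Msmo1, the sterol methyl oxidase that works beside Nsdhl, had 295, 343 and 320 CPM in Met3, against 422, 531 and 592 CPM in Primary3, and its 3 Met3 libraries lay below the Primary3 range. Its log2 change was -0.69 (SE 0.19, adjusted p = 0.0242). The adjusted p of Msmo1 was above 0.05 without each of Met3 replicates 1, 2 and 3 (0.104, 0.0501 and 0.058) and without Primary3 replicates 2 and 3 (0.0698 and 0.101), and it was 0.111 with the ribosomal RNA share in the model. Of the 18 sterol enzymes 5 fell, with a median of -0.18, and of the 6 fatty acid enzymes 1 fell, with a median of -0.44, against a median over all genes of 0.00029. Elovl6, Scd2 and Fasn also lay below Primary3 without overlap but were not called by the main edgeR fit (adjusted p = 0.05355, 0.1208 and 0.2409), while Acly and Acaca overlapped. Elovl6 was called by DESeq2 (adjusted p = 0.0268), and edgeR with a replicate block called Elovl6 (0.0465) and Scd2 (0.0469). With only the groups compared, edgeR called Scd2 (0.0495).

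No gene of the 14925, and so none of the 30, passed the test of the difference between the rounds by edgeR. At an unadjusted p under 0.05, edgeR gave 9 of the 30 and 1817 of all genes, and DESeq2 called 2 of the 30 and 224 of all genes. Sterol enzymes had a median difference, round 3 minus round 2, of -0.43, with 16 of 18 negative, where 7592 of all 14925 genes were negative. Fatty acid enzymes had a median difference of 0.13. The largest of the 30 after Scd1 was Pmvk, with a difference of -0.84 (SE 0.24, adjusted p = 0.272). The 2 called by DESeq2 were Scd1 and, in the opposite direction, Srebf1 (difference 0.49, adjusted p = 0.0476). By edgeR the difference for Srebf1 was 0.50 (SE 0.15, adjusted p = 0.284). Its edgeR log2 change was -0.33 in round 2 (adjusted p = 0.0582) and 0.17 in round 3 (adjusted p = 0.27). DESeq2 called Srebf1 lower in round 2 (adjusted p = 0.0177). The rounds are therefore not shown to differ for these genes by edgeR, and the values are set side by side.

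**Figure D4:**
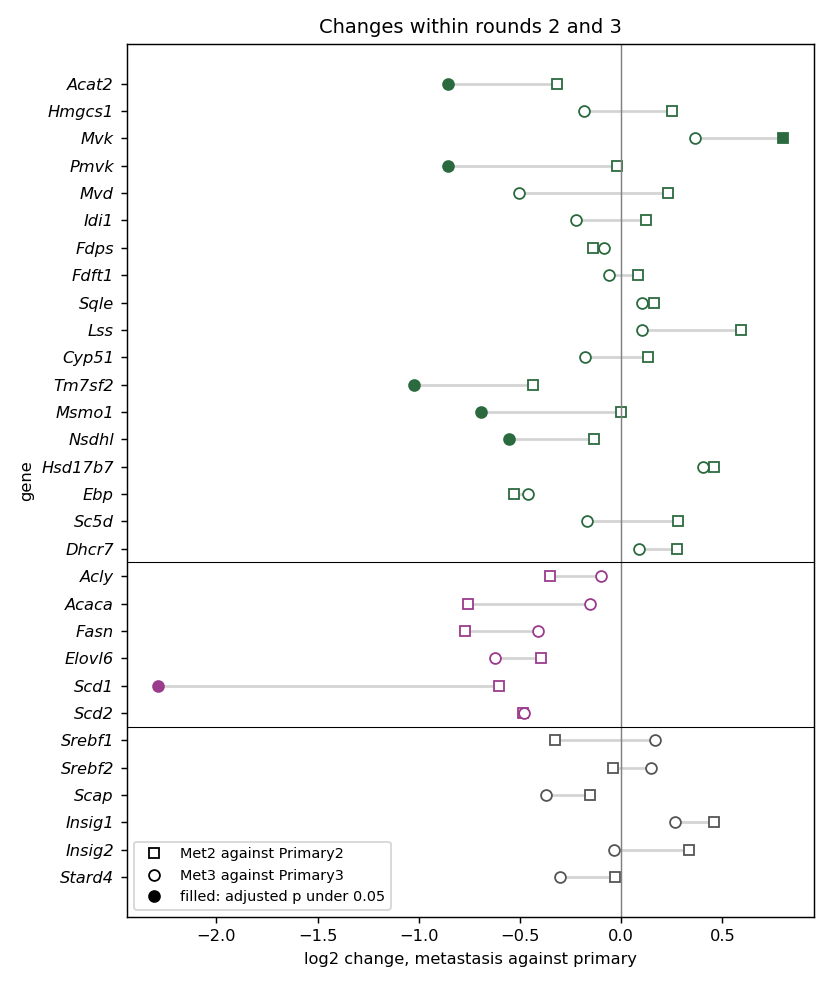
Fitted log2 change of each of the 30 genes within round 2 (squares, Met2 against Primary2) and within round 3 (circles, Met3 against Primary3), joined by a grey line; filled symbols passed an adjusted p of 0.05. In round 2 Mvk alone is filled, and in round 3 Acat2, Pmvk, Tm7sf2, Msmo1, Nsdhl and Scd1 are filled, all left of 0.

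The second question was how metastasis-derived organoids changed over the rounds. In Met3 against Met1, 14 of the 30 genes fell and none rose, where 23.4% of all tested genes were called, 11.6% as higher and 11.8% as lower. Of the 18 sterol enzymes 6 fell (median -0.26), of the 6 fatty acid enzymes 4 fell (median -0.66) and of the 6 regulators 4 fell (median -0.43), against a median over all genes of 0.0066. The libraries of all 14 were separate, where 11.5% of all genes were called lower without overlap. Leaving out Met3 replicate 1 left 8 of the 14 calls in number, and the other libraries left out singly gave up to 15.

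Scd1 had 28.6, 15 and 27.9 CPM in Met3, against 133, 217 and 132 CPM in Met1, a log2 change of -2.75 (SE 0.35, adjusted p = 0.000849). Scd2 had 641, 655 and 843 CPM in Met3, against 1230, 1580 and 1280 CPM in Met1, a log2 change of -0.94 (SE 0.21, adjusted p = 0.0083). Both desaturases were thus lower, Scd1 by more, and Scd1 made up 9.35 to 12.1% of their summed CPM in Met1. Fasn had 149, 120 and 152 CPM in Met3, against 221, 270 and 225 CPM in Met1, a log2 change of -0.77 (SE 0.24, adjusted p = 0.036). Acly, the ATP citrate lyase, had 236, 244 and 276 CPM in Met3, against 338, 395 and 323 CPM in Met1, a log2 change of -0.48 (SE 0.16, adjusted p = 0.0468). These last 2 calls were close to the threshold: leaving out any 1 of the 6 libraries of the comparison gave adjusted p of 0.0577 to 0.118 for Fasn and 0.0606 to 0.163 for Acly, both highest without Met1 replicate 2. With the ribosomal RNA share in the model both calls were lost, at an adjusted p of 0.0655 for Fasn and 0.0712 for Acly, and with no low-count filter that for Acly was 0.0617. The call for Acly was also lost without Met2 replicate 2, Primary2 replicates 2 and 3 and each Primary3 replicate, at 0.0539 to 0.0647.

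Among mevalonate enzymes, 4 of 7 fell (median log2 change -0.77), where 11.8% of all tested genes were called lower. Hmgcs1, the synthase that makes HMG-CoA, had 314, 352 and 375 CPM in Met3, against 601, 704 and 513 CPM in Met1, a log2 change of -0.81 (SE 0.24, adjusted p = 0.0321). The call for Hmgcs1 ended without each of 5 of the 6 libraries, with adjusted p of 0.0646 and 0.113 without Met1 replicates 1 and 2, and 0.104, 0.0721 and 0.0599 without Met3 replicates 1, 2 and 3. Mvd, the mevalonate diphosphate decarboxylase, had 83.5, 79.7 and 80.3 CPM in Met3, against 135, 143 and 135 CPM in Met1, a log2 change of -0.77 (SE 0.19, adjusted p = 0.0135). Pmvk had 68.2, 85.7 and 59.9 CPM in Met3, against 116, 136 and 126 CPM in Met1, a log2 change of -0.82 (SE 0.17, adjusted p = 0.00547). Acat2 had 139, 151 and 156 CPM in Met3, against 237, 263 and 265 CPM in Met1, a log2 change of -0.78 (SE 0.15, adjusted p = 0.00376). Mvk, the exception in the metastasis comparison, was not called here.

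After lanosterol, 2 of 8 enzymes fell, where 11.8% of all tested genes were called lower, and the median log2 change of the 8 was -0.042. Tm7sf2 had 19.2, 18.1 and 28.2 CPM in Met3, against 45.9, 42.2 and 43.9 CPM in Met1, a log2 change of -1.01 (SE 0.19, adjusted p = 0.00372). Nsdhl had 89.5, 88 and 91.8 CPM in Met3, against 120, 123 and 136 CPM in Met1, a log2 change of -0.49 (SE 0.13, adjusted p = 0.0157), which became 0.0546 without Met1 replicate 3 and 0.051 without Met3 replicate 1. None of Fdft1, Sqle and Lss, which lead from farnesyl diphosphate to lanosterol, was called by the main edgeR fit in this or any other comparison. DESeq2 called Lss here (log2 change -0.57, adjusted p = 0.0341) and in Met2 against Primary2 (log2 change 0.61, adjusted p = 0.0332). When only the groups compared were fitted, edgeR called Lss here too (log2 change -0.568, adjusted p = 0.0391).

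Of the regulators, the 2 SREBP genes and Scap were lower in Met3 than in Met1, whereas the Insig genes were not called. Srebf2 had 214, 218 and 202 CPM in Met3, against 343, 433 and 332 CPM in Met1, a log2 change of -0.81 (SE 0.18, adjusted p = 0.0078). Scap had 19.7, 18 and 22.2 CPM in Met3, against 38.3, 35.6 and 42.3 CPM in Met1, a log2 change of -0.95 (SE 0.16, adjusted p = 0.00251). Both sets of libraries were well apart. Srebf1 had 89.6, 79.8 and 87.5 CPM in Met3, against 102, 116 and 101 CPM in Met1, a log2 change of -0.31 (SE 0.10, adjusted p = 0.0486). The call for Srebf1 was lost in 17 of 23 alternatives, among them each of the 6 libraries of the comparison left out, up to an adjusted p of 0.176 without Met1 replicate 2, and Met2 replicate 2, each Primary2 replicate and Primary3 replicates 2 and 3, at 0.0585 to 0.0664. Stard4, which carries sterol between membranes, had 111, 142 and 118 CPM in Met3, against 175, 205 and 164 CPM in Met1, a log2 change of -0.55 (SE 0.13, adjusted p = 0.0105), or 0.0567 without Met3 replicate 1. The ratio of Srebf2 to Srebf1 CPM was 2.38, 2.73 and 2.3 in Met3, against 3.37, 3.74 and 3.3 in Met1.

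The steps between rounds placed these changes differently. In Met2 against Met1, 1 of the 30 genes rose and 3 fell, where 16.3% of all tested genes were called, 8.7% as higher and 7.57% as lower. Srebf2 had 157, 225 and 229 CPM in Met2, against 343, 433 and 332 CPM in Met1, a log2 change of -0.86 (SE 0.18, adjusted p = 0.0117). Srebf1 had 65.5, 70.5 and 78.8 CPM in Met2, against 102, 116 and 101 CPM in Met1, a log2 change of -0.57 (SE 0.10, adjusted p = 0.00809). The SREBP genes were thus already lower in round 2, and Met1 lay above all 12 other libraries for both. Scd2 had a log2 change of -0.65 (SE 0.21, adjusted p = 0.04998) and Mvk of 0.75 (SE 0.21, adjusted p = 0.0298). The adjusted p of Srebf2 was 0.0535 without Met1 replicate 2. That of Mvk was 0.0504 and 0.121 without Met1 replicates 1 and 2 and 0.0546 and 0.0775 without Met2 replicates 1 and 3. That of Scd2 passed 0.05 in 14 alternatives, 12 of them a library left out (any Met1, Met3 or Primary3 replicate, Met2 replicates 1 and 2, and Primary2 replicate 2), at 0.0511 to 0.177. Of the 30 genes, 2 were called without Met1 replicate 1, 1 without Met1 replicate 2 and 2 without Met2 replicate 1. Of all genes, 573 were called without Met1 replicate 2 and 2527 without Met2 replicate 1, in place of 2428. None of the 4 calls was left with the ribosomal RNA share in the model or when only these 2 groups were fitted. That share did not overlap between Met1 and Met2, so the first of these settings cannot fully separate it from the groups.

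In Met3 against Met2, 1 of the 30 genes fell, where 0.275% of all tested genes were called, 0.0536% as higher and 0.221% as lower. It was Scd1, at 28.6, 15 and 27.9 CPM in Met3, against 95.1, 50.5 and 128 CPM in Met2, a log2 change of -1.94 (SE 0.34, adjusted p = 0.0386). The libraries did not overlap, but the call was lost in 17 of 23 alternatives, 13 of them single libraries left out, with adjusted p of up to 0.143 without Met3 replicate 2, and it was 0.591 when only these 2 groups were fitted. Among single libraries left out, the call held only without Met1 replicate 2 or without Met2 replicate 2. Pmvk had the next smallest p, with a log2 change of -0.74 (SE 0.17, adjusted p = 0.082), and an adjusted p of 0.0042 by DESeq2. In Primary3 against Primary2, edgeR called none of the 30 genes and none of the 14925, with 2 of the 30 and 1063 genes at an unadjusted p under 0.05, and DESeq2 called none of the 30 and 43 genes. The 2 were Insig1 (log2 change 0.48, SE 0.20, adjusted p = 0.654) and Srebf1 (log2 change -0.24, SE 0.10, adjusted p = 0.699). Insig1 had 201, 263 and 302 CPM in Primary3, against 182, 184 and 183 CPM in Primary2, and all 3 Primary3 libraries lay above Primary2.

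Placing Met3 and Met1 against all 12 other libraries, a description chosen after the values were seen, showed where each gene's extremes lay. In 8 of the 30 genes, all 3 Met3 libraries lay below all 12 others, where 2.64% of all tested genes did so. These were the sterol enzymes Acat2, Pmvk, Tm7sf2 and Nsdhl, the fatty acid enzymes Elovl6 and Scd1, and the regulators Scap and Stard4. In 2 of the 30, Srebf1 and Srebf2, all 3 Met1 libraries lay above all 12 others, where 4.99% of all genes did so. By group mean, Met3 was the lowest group for 11 of 18 sterol enzymes and for 5 of 6 fatty acid enzymes, the exception being Acaca, lowest in Met2. Fatty acid enzymes had their highest mean in Met1 or in Primary2, for 3 genes each. Lowest and highest groups were not counted over all tested genes, so these counts have no share to be read against.

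The 2 branches were then compared within each library, by the mean of log2(CPM + 0.5) over a branch's genes, each centred on its mean over the 15 libraries. The sterol score averaged 0.09 ± 0.04 in Met1, 0.10 ± 0.23 in Met2 and -0.24 ± 0.01 in Met3, and 0.011 ± 0.19 in Primary2 and 0.03 ± 0.07 in Primary3 (SD, n = 3 each). The fatty acid score averaged 0.33 ± 0.18 in Met1, -0.20 ± 0.40 in Met2 and -0.61 ± 0.09 in Met3, and 0.40 ± 0.16 in Primary2 and 0.07 ± 0.16 in Primary3. Fatty acid enzymes thus ranged over more than sterol enzymes, and both scores were lowest in Met3. The sterol score less the fatty acid score was 0.39, 0.45 and 0.06 in Met2, against -0.48, -0.25 and -0.44 in Primary2, with no overlap. In round 3 it was 0.40, 0.45 and 0.26 in Met3, against -0.29, 0.05 and 0.12 in Primary3, again with no overlap. The difference between metastasis and primary was 0.69 in round 2, 0.41 in round 3 and 0.55 over both, on the log2 scale.

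Scd1 weighed unequally on that difference in the 2 rounds, as a comparison without it, chosen after the values were seen, showed. With Scd1 left out of the fatty acid score, the sterol less fatty acid score was 0.52, 0.36 and 0.13 in Met2, against -0.46, -0.18 and -0.38 in Primary2, with no overlap and a difference of 0.67. In round 3 it was 0.22, 0.09 and 0.04 in Met3, against -0.26, 0.13 and 0.22 in Primary3, so the libraries overlapped and the difference was 0.09. Over both rounds the difference without Scd1 was 0.38, with overlap. Between rounds, the sterol less fatty acid score was 0.61 higher in Met3 than in Met1 and 0.54 higher in Met2 than in Met1, with no overlap of libraries in either, and without Scd1 these differences were 0.25 and 0.47, again with no overlap. Met3 less Met2 was 0.07, with overlap, and turned to -0.046 when Met2 replicate 3 was left out and to -0.22 without Scd1. In Primary3 it was 0.35 higher than in Primary2, with overlap, and the fatty acid score was 0.33 lower there with no overlap. The regulators' score was 0.37 lower in Met3 and 0.31 lower in Met2 than in Met1, without overlap in either.

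**Figure D5:**
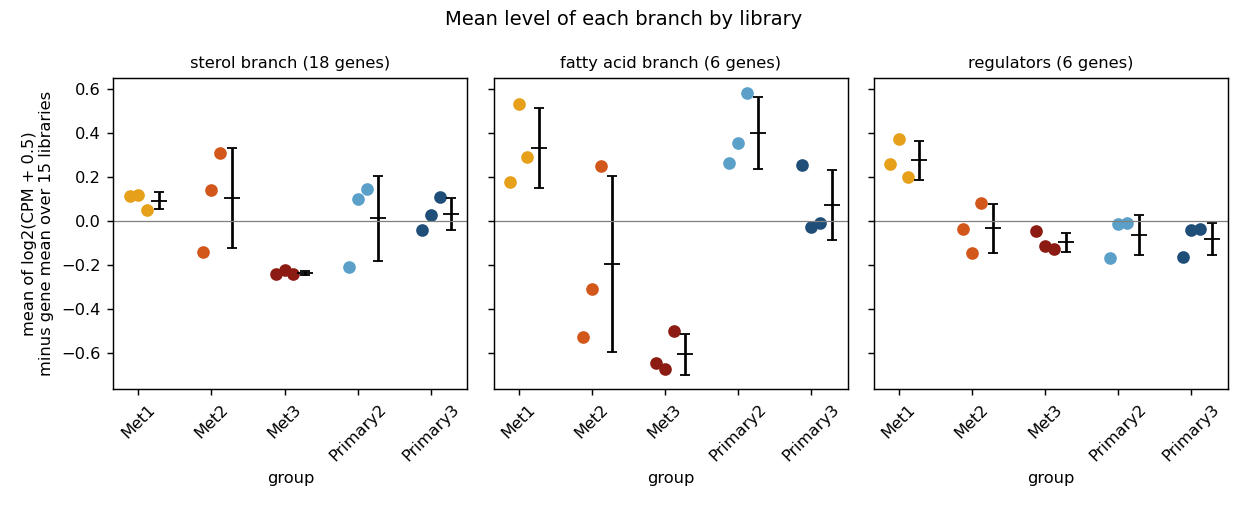
Mean of log2(CPM + 0.5), each gene centred on its mean over the 15 libraries, for the sterol branch, the fatty acid branch and the regulators; points are libraries and black bars the group mean and SD (n = 3). Fatty acid scores reach from 0.58 in Primary2 to -0.68 in Met3, and the sterol scores of the 3 Met3 libraries lie together at -0.23 to -0.24.

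Genes next to the pathway were counted by lists, and each count stands beside the share of all tested genes called, which was 30.4% in metastasis against primary (14.3% as higher, 16.1% as lower) and 23.4% in Met3 against Met1 (11.6% as higher, 11.8% as lower). Of 12 tested genes of sterol uptake, export and oxidation, 1 rose and 2 fell in metastasis against primary, and 1 rose and 2 fell in Met3 against Met1, so the 3 of 12 called were near the share of all genes in both. Cyp27a1, which makes an oxysterol, had a log2 change of -2.87 (adjusted p = 0.0068) and of -3.94 (adjusted p = 0.0155) in the 2 comparisons, at levels of 0.108 to 0.367 CPM in Met3, against 2.15 to 2.95 CPM in Primary3. Mylip, which marks lipoprotein receptors for degradation, had 0.231 to 0.89 CPM in Met3, against 3.05 to 5.03 CPM in Met1 (log2 change -2.82, adjusted p = 0.00413). The remaining called genes were Npc2 (-0.39) and Soat1 (0.35) in metastasis against primary and Stard3 (0.58) in Met3 against Met1, as log2 changes.

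Of 8 genes that process SREBP or act with the Insig proteins, 4 fell in metastasis against primary and none rose, where 16.1% of all tested genes were called lower. Among them were Erlin2, a membrane protein of the endoplasmic reticulum (log2 change -0.52, adjusted p = 0.00189), the SREBP-cleaving protease Mbtps1 (-0.50, adjusted p = 0.00524) and Rnf145 (-0.62, adjusted p = 0.00745). In Met3 against Met1 only Rnf145 of the 8 was called (log2 change -0.87, adjusted p = 0.0122), where 23.4% of all genes were. Of 9 genes that use isoprenoids from the mevalonate pathway, 2 rose and 1 fell in each comparison, where 30.4% and 23.4% of all genes were called, with the prenyltransferase subunit Pggt1b the one that fell in both (log2 change -0.54, adjusted p = 0.000394, and -0.59, adjusted p = 0.00362). The risers were Nus1 (0.36) and Dhdds (0.33) in metastasis against primary, and Pdss1 (1.04) and Fnta (0.38) in Met3 against Met1, as log2 changes.

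Of 20 tested genes that supply, lengthen or desaturate fatty acids, 2 rose and 7 fell in metastasis against primary, and 1 rose and 8 fell in Met3 against Met1, where 16.1% and 11.8% of all genes were called lower. The desaturase genes Fads1, Fads2 and Fads3, which lie on chromosome 19 (as do the Scd genes), had the largest changes of this list. The largest was that of Fads1, with a log2 change of -3.77 (adjusted p = 0.00417) in metastasis against primary. In Met3 against Met1 it was -5.40 (adjusted p = 0.00992), at 0.173 to 0.646 CPM in Met3 and 8.46 to 25.2 CPM in Met1. Fads2 stood at 0.323 to 9.06 CPM in Met3 and 7.21 to 61.3 CPM in Met2, against 119 to 147 CPM in Primary3 and 142 to 178 CPM in Primary2, and Met1 had 66.5 to 108 CPM. Its log2 change was -3.56 (adjusted p = 0.000858) in metastasis against primary and -4.52 (adjusted p = 0.00399) in Met3 against Met1. Fads3 fell with it (-3.01, adjusted p = 0.000163, and -3.66, adjusted p = 0.00186), and so did Me1, a source of NADPH for synthesis (-1.27, adjusted p = 0.000669, and -1.85, adjusted p = 0.00205). Tecr, the last enzyme of the elongation cycle, fell in metastasis against primary (-0.63, adjusted p = 0.000202). Scd3, the one that rose in Met3 against Met1, was at 3.57 to 11.6 CPM in Met3, against 0.55 to 1.59 CPM in Met1.

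Of 7 genes of glycerolipid synthesis and storage, 2 rose and 1 fell in metastasis against primary, and 1 rose and 2 fell in Met3 against Met1, where 30.4% and 23.4% of all genes were called. Plin2, the coat protein of lipid droplets, had 22.5 to 34.1 CPM in Met3, against 110 to 130 CPM in Met1 (log2 change -2.16, adjusted p = 0.00186), and its log2 change in metastasis against primary was -0.68 (adjusted p = 0.0328). Dgat2, which makes triacylglycerol, had 7.49 to 20.9 CPM over Met2 and Met3, against 1.99 to 9.13 CPM over Primary2 and Primary3 (log2 change 1.65, adjusted p = 0.00287). The others called were Lpin2 (0.58) in metastasis against primary, and Lpin1 (-1.90) and Agpat2 (0.92) in Met3 against Met1, as log2 changes. Of 11 tested genes of fatty acid oxidation, 2 rose and 2 fell in metastasis against primary, where 30.4% of all genes were called. The dehydrogenase Acadl was higher in metastasis against primary (log2 change 0.88, adjusted p = 0.000636).

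The remaining genes of the pathway gave no call by the main edgeR fit in any comparison: Idi1, Fdps, Fdft1, Sqle, Lss, Cyp51, Sc5d, Dhcr7, Acaca, Insig1 and Insig2. By DESeq2, Insig1 was called in metastasis against primary (log2 change 0.38, adjusted p = 0.0358), beside the calls for Lss given earlier. Fdft1 ran from 251 to 361 CPM over the 15 libraries, Fdps from 319 to 538 CPM and Idi1 from 261 to 421 CPM. Sqle ran from 149 to 320 CPM, both extremes in Met2, and Lss from 75.5 CPM in Primary2 to 190 CPM in Met2. Dhcr7, the reductase that ends the pathway, had 48.5 to 93.6 CPM, both extremes in Met2. Acaca had 29.1 to 83.5 CPM, with 38.9, 83.5 and 46.4 CPM in Met3. Insig1 ran from 182 to 363 CPM and Insig2 from 36.5 to 61.8 CPM. The 8 proliferation markers summed to 1790 to 2360 CPM over Met2 and Met3, against 1850 to 3040 CPM over Primary2 and Primary3, and 1 of the 8 fell in metastasis against primary. Their part in the changes of the lipid genes was not tested. In bulk libraries such as these, fewer cells of a kind and less RNA per cell cannot be told apart.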

How the data were processed

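RNA-seq libraries were made from total RNA with poly(A) selection and a directional kit, per the labels' protocols. The deposited table holds estimated counts per gene as whole numbers; the submitters' processing notes name Salmon 1.3.0 and mm10, but neither the summing of transcripts to genes nor the use of strand is stated. From these expected counts, edgeR 4.0.16 (limma 3.58.1, R 4.3.3) was run on all 15 libraries with 5 group means, TMM scaling, genes filtered by edgeR's default per group (14925 of 54418 kept), a quasi-likelihood F test and Benjamini-Hochberg adjustment over all tested genes. Each standard error was taken as the size of the log2 change over √F. CPM use TMM-scaled totals. Total counts per library were 14122203 to 21306543, and the common dispersion was 0.118, a replicate coefficient of variation of 0.343. Gene symbols came from GENCODE M21, which matched 54096 identifiers, leaving 322.

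The groups were Met2 and Met3 against Primary2 and Primary3 (weighted equally by round), each round alone, the difference between rounds, and each round against another, 8 comparisons in all. Alternatives were RLE scaling, 2 other filters, DESeq2 1.42.0, limma-voom, only the groups compared, a replicate block, the ribosomal RNA share as covariate, each library left out and, added after seeing the data, Scd1 left out of the fatty acid score. The members and lists were chosen with earlier results of these data known. Levels in every library are given for genes called without overlap and for the 2 smallest p per comparison, and from each neighbouring list at most 3 called genes by p in 2 comparisons, with others added because they stood out. Protein sequences were not used here, and some genes of the neighbouring lists are not reported here by name.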

Additional observations from a re-analysis of the deposited data

How the results depend on the processing

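For the 43 log2 changes of single genes that were called or had 1 of the 2 smallest p among the 30 in a comparison, 23 alternatives gave 989 values: none changed sign, 870 kept their side of the threshold, 112 lost the call and 7 gained it. The calls for Scd1, Acat2 and Tm7sf2 in metastasis against primary, Met3 against Met1 and Met3 against Primary3 held under all 23. For Met2 against Primary2, where 1768 genes and 1 of the 30 were called, DESeq2 gave 2830 and 5, fitting only the groups compared 215 and 0, the ribosomal RNA covariate 330 and 0, limma-voom 3 of the 30, and no filter or a CPM filter 2 each. For Met3 against Primary3 the covariate gave 1746 genes in place of 2850. For the difference between rounds DESeq2 gave 224 genes and 2 of the 30, in place of 0. For Met2 against Met1, 2428 genes and 4 of the 30 became 14 and 0 with only the groups compared, and 159 and 0 with the covariate. For Met3 against Met2, 41 genes and 1 of the 30 became 588 and 5 by DESeq2, 4 and 0 by limma-voom, 0 and 0 under 3 settings (only the groups compared, the replicate block, the covariate), and 85 genes with no filter. For Primary3 against Primary2, DESeq2 called 43 genes and limma-voom 1. The cause of these shifts was not tested.

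With 1 library left out, the count of all genes and of the 30 ran from 3656 to 5265 and 9 to 13 for metastasis against primary, 1988 (without Met1 replicate 2) to 4449 and 8 to 15 for Met3 against Met1, 715 (without Primary2 replicate 3) to 2150 and 0 to 3 for Met2 against Primary2, 1372 (without Primary3 replicate 3) to 3668 and 5 to 8 for Met3 against Primary3, 0 to 17 and 0 to 0 for the difference between rounds, 573 (without Met1 replicate 2) to 2527 and 1 to 6 for Met2 against Met1, 0 to 203 and 0 to 1 for Met3 against Met2, and 0 to 2 and 0 to 0 for Primary3 against Primary2. The sterol less fatty acid score moved by less than the spread between libraries under the scaling, filter, block, covariate and left-out-library alternatives, though Met3 less Met2 changed sign, 0.0726 as against -0.046 without Met2 replicate 3. With Scd1 left out of it, chosen after seeing the data, the difference became 0.38 for metastasis against primary, 0.253 for Met3 against Met1, 0.0859 for Met3 against Primary3, -0.588 between rounds and -0.219 for Met3 against Met2.

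Deviations from group means correlated at -0.128 to 0.301 (median 0.00971, 30 pairs) between libraries of the same replicate number and at -0.335 to 0.234 (median -0.023, 60 pairs) between others. As 9 of 15 libraries correlated best with their own number, the data give at most a weak hint of pairing. The median same-number correlation, 0.00971, was close to that of other pairs, and how many such best matches arise without pairing was not computed. The replicate number was therefore not taken as a pairing. With the replicate number as a block, 12 of the 30 and 4490 of all genes were called in metastasis against primary, in place of 11 and 4537. In Met3 against Met2 it was 0 of the 30 and 0 of all genes. The block gave 13 of the 30 in Met3 against Met1, 8 in Met3 against Primary3 and 5 in Met2 against Met1. Counts of all genes are not set beside these last values, so they cannot be read against a share. With 3 libraries a group, small changes such as that of Srebf1 in Met3 against Met1 sat at the threshold.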
